A study of Rattus norvegicus with 31 samples.

Results

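The Slc25 genes encode the mitochondrial carriers, a family of proteins that carry nucleotides, phosphate, amino acids, dicarboxylates, cofactors and metal ions across the inner mitochondrial membrane. The members were the rows of the RefSeq gene table of rat left ventricle whose symbol is Slc25a followed by a number, with 1 symbol left out, which gave 43 members of 19100 RefSeq genes. Total RNA depleted of ribosomal RNA was sequenced from the left ventricle of untreated male rats that had met neither alcohol nor drugs. The sources used here give no age. The inbred strains were SHR (SHR/OlaIpcv, the spontaneously hypertensive rat) with 4 libraries and BN-Lx (BN-Lx/Cub, a normotensive Brown Norway strain that carries the polydactyly-luxate segment) with 4 libraries, all of sequencing batch 1. Their descendants were 12 HXB and 9 BXH recombinant inbred strains, the reciprocal families bred from SHR and BN-Lx, with 1 library each in batches 2 and 3. HXB strains fell 3 in batch 2 and 9 in batch 3, and BXH strains 3 and 6. A strain with 1 library is 1 animal, so strain and animal cannot be told apart. The RefSeq table was used for the recombinant strains, and a table of genes assembled from the reads for the progenitors. In the assembled table, 33 members had a gene of their own among 46063, 3 shared 1 with another symbol (Slc25a11 with Chrne, Slc25a30 with Cog3, Slc25a44 with Lmna), and 7 had none by name (Slc25a3, Slc25a16, Slc25a22, Slc25a23, Slc25a34, Slc25a39 and Slc25a52). All values are log2 levels, and a higher value is a higher level.

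Carriers of this family share a fold of repeated membrane-spanning helices, and most exchange 1 solute for another. In cardiac muscle the ADP/ATP carriers hand newly made ATP to the cytosol in exchange for ADP, and the phosphate carrier brings in the phosphate that ATP synthase needs. The aspartate/glutamate carriers and the 2-oxoglutarate/malate carrier form the membrane steps of the malate-aspartate shuttle, which moves the reducing power of cytosolic NADH into the matrix. Other members move citrate, ornithine, coenzyme A, S-adenosylmethionine, glutathione, pyrimidine nucleotides or iron, and several have no settled substrate.

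Promoters of 35 of the 43 members were found among the 27457 in the RefSeq table (build GRCr8), each reaching from 250 bases before the transcription start to 50 after it. The promoter of Slc25a4, the ADP/ATP carrier of heart and muscle, is shown because it had the highest level per length among the members that could be ranked. Those of Slc25a12 and Slc25a13, the aspartate/glutamate carriers, are shown because the transcripts of Slc25a12 differed between the progenitors and the promoter of Slc25a13 held the NRF1 core. They lie at chr16:52805271-52805570 (plus strand), chr3:76599487-76599786 (minus strand) and chr4:35328311-35328610 (minus strand), and capitals mark the NRF1 core, which reads as its reverse complement here.
Slc25a4: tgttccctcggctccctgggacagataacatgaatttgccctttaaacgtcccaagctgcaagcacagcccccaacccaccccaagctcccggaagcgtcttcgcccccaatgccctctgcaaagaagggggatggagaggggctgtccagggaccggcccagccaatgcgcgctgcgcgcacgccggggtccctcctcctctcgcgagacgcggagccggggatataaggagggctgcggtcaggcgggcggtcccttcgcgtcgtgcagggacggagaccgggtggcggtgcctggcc
Slc25a12: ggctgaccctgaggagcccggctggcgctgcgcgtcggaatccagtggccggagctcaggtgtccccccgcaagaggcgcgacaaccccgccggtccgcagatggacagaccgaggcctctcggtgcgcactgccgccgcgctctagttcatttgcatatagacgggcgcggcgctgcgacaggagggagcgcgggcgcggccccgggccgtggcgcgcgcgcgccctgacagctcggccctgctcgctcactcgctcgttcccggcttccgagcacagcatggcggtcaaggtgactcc
Slc25a13: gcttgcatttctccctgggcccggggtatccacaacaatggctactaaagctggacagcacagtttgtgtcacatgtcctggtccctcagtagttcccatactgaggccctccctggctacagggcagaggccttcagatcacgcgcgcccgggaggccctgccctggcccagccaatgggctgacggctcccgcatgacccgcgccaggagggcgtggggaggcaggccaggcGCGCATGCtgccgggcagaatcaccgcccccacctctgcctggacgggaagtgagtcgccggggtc

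Bases G and C made up 67.3%, 72.3% and 66.3% of these promoters in the order printed. Over the 35 members the median was 60.3%, within a range of 43.3 to 77.7%, and over all promoters it was 52.3%. The NRF1 core GCATGCGC, searched like the others on both strands, was found in the promoter of Slc25a13 alone, 1 of 35 (2.86%), against 2.66% of all promoters. The YY1 motif AAGATGGCG was found in Slc25a44 alone (1.93% of all promoters), and the TATA motif TATAAA in Slc25a38 alone (14.3% of all promoters). No member held the element TNAAGGTCA bound by oestrogen-related receptors, which 1.15% of all promoters held. A match describes the letters only.

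The level of each gene was set against its exonic length in the 8 progenitor libraries, for the 26 members whose assembled and RefSeq levels lay within 1 log2 unit of each other. The length is that of all exons in any assembled transcript of a gene, from 1200 bases for Slc25a5 to 32035 for Slc25a25. Little-used exons thus lower a value, so the order depends on the assembly too. Slc25a4 stood highest, at 16.52 ± 0.12 log2 units per kilobase in SHR and 16.75 ± 0.17 in BN-Lx (SD, n = 4 each). Slc25a5, a widely expressed ADP/ATP carrier, came next among these 26 at 12.75 ± 0.22 in SHR and 12.91 ± 0.15 in BN-Lx. The ranges of Slc25a4 and Slc25a5 did not meet in either strain.

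Both aspartate/glutamate carriers followed. Slc25a13 (citrin) was at 10.41 ± 0.14 per kilobase in SHR and 10.70 ± 0.10 in BN-Lx, and Slc25a12 (aralar) at 10.25 ± 0.14 and 10.50 ± 0.08 in the same order of strains. The libraries of these neighbours overlapped in SHR but not in BN-Lx. Below them stood Slc25a42, a coenzyme A carrier, at 8.97 ± 0.09 in SHR and 8.84 ± 0.07 in BN-Lx, and Slc25a46, an outer membrane protein of mitochondrial dynamics, at 8.08 ± 0.12 and 8.15 ± 0.17. Slc25a36, a pyrimidine nucleotide carrier, was at 7.60 ± 0.04 in SHR and 7.89 ± 0.14 in BN-Lx, and Slc25a15, the ornithine carrier, at 7.40 ± 0.12 and 7.34 ± 0.05. Slc25a36 overlapped with Slc25a46 in BN-Lx and with Slc25a15 in SHR. The median over the 26 members was 6.60, and the lowest were Slc25a53 (0.03), Slc25a27 (0.36), Slc25a47 (2.01) and Slc25a43 (2.14). The remaining 7 members, Slc25a2, Slc25a6, Slc25a10 and Slc25a40 among them, differed by more between the tables, so no length-corrected level is given for them, nor for the members without an assembled gene of their own. Slc25a3, the phosphate carrier, is one of these, with a median RefSeq level of 16.22 over the strains, not corrected for length, so the order holds within the 26 only.

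**Figure D1:**
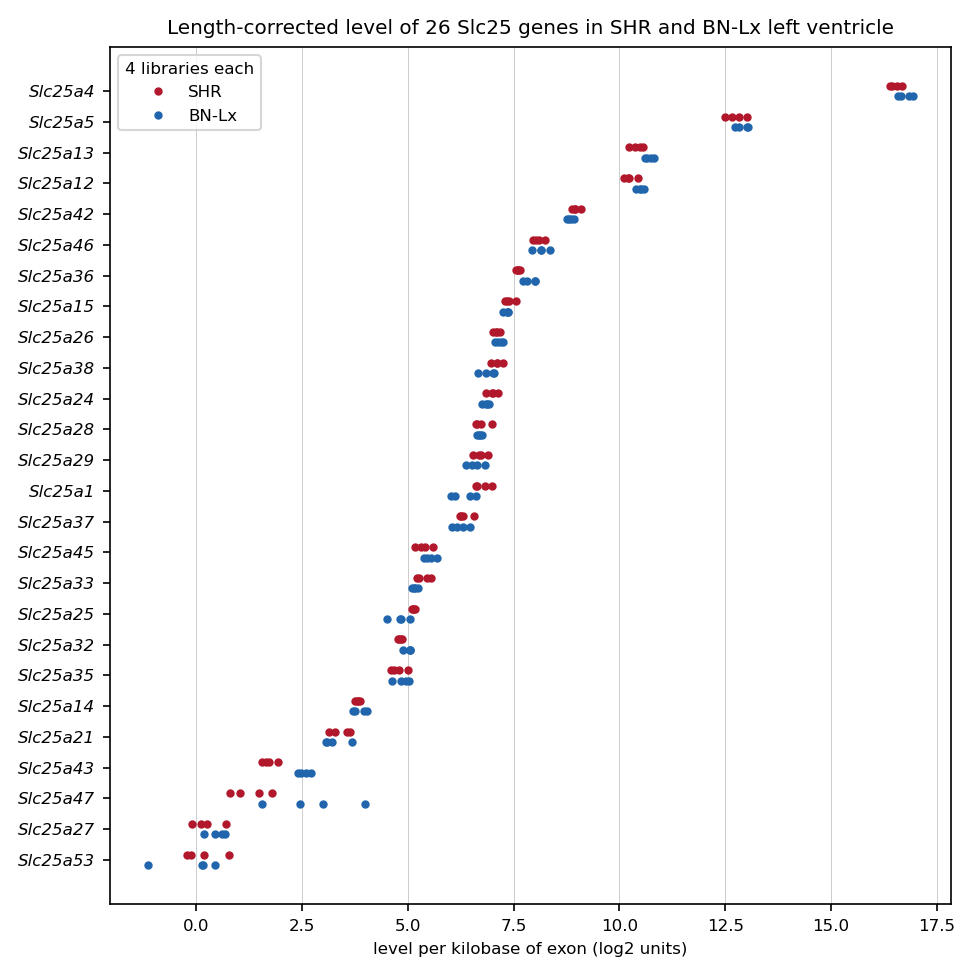
Log2 level per kilobase of exon (x axis) of the members whose assembled and RefSeq levels lay within 1 log2 unit, 1 row a gene, with SHR above BN-Lx and points for the 4 libraries of each. Slc25a4 (16.40 to 16.94) stands clear of Slc25a5 (12.50 to 13.05), and the SHR points of Slc25a12 reach into those of Slc25a13.

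The progenitors were compared to find members that differ between SHR and BN-Lx. At the level of whole genes, 4 of 33 members passed the test, all lower in SHR, and none was higher (limma on the log2 values, Benjamini-Hochberg adjusted over all 46063 assembled genes). Over all assembled genes 14.3% passed and 6.95% were lower in SHR, so the share of members is near the background. The median difference was -0.06 over the members, of which 20 were negative and 13 positive, against 0.01 over all genes, and 13 members had an unadjusted p under 0.05. These counts include 7 assembled genes more than 1 log2 unit from their RefSeq level, such as Slc25a18 (8.24 above) and Slc25a17 (3.37 above, rho = 0.14 across strains). Slc25a21 was near in level but did not follow its RefSeq row (rho = -0.09). Such genes may not measure the carrier alone.

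Slc25a36 (chr8:97659848-97693735, minus strand, rn7) had 11.34, 11.41, 11.35 and 11.31 in SHR, against 11.76, 11.48, 11.76 and 11.56 in BN-Lx. Every SHR library lay below every BN-Lx library, and the difference was -0.29 (SE 0.08, adjusted p = 0.0297 by limma). Slc25a13 (chr4:34179224-34361912, minus strand) had 12.19, 12.12, 11.99 and 11.86 in SHR, against 12.46, 12.23, 12.38 and 12.27 in BN-Lx. Its groups did not overlap either, with the nearest libraries 12.19 in SHR and 12.23 in BN-Lx, and the difference was -0.29 (SE 0.08, adjusted p = 0.0353 by limma).

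Slc25a10, the dicarboxylate carrier (chr10:105758537-105775215, plus strand), had 12.63, 12.40, 12.32 and 12.44 in SHR, against 12.80, 12.65, 12.72 and 12.64 in BN-Lx, a difference of -0.26 (SE 0.08, adjusted p = 0.0437 by limma). The groups lay next to each other without overlap. Its assembled level was 3.67 log2 units above its RefSeq level. Slc25a6, an ADP/ATP carrier (chr18:68571229-68572474, plus strand, a single exon), had 5.62, 5.98, 5.95 and 4.97 in SHR, against 6.24, 6.04, 7.12 and 6.85 in BN-Lx. All SHR values lay below all BN-Lx values, with a difference of -0.93 (SE 0.27, adjusted p = 0.0392 by limma). The ADP/ATP carriers are close paralogs whose reads may be divided among them, so the value of Slc25a6 is uncertain. Its assembled level was 2.17 log2 units below its RefSeq level. Of the 4 called members 2 had assembled and RefSeq levels within 1 log2 unit of each other.

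Slc25a11, the 2-oxoglutarate/malate carrier, could be read only in the assembled gene it shares with Chrne (chr10:55330896-55360478, minus strand), which is not among the 33. That gene had 13.64, 13.56, 13.46 and 13.46 in SHR, against 14.02, 13.76, 13.91 and 13.84 in BN-Lx. It was lower in each SHR library (difference -0.35, SE 0.07, adjusted p = 0.00639 by limma), and its call was kept in 15 of 19 alternatives. The call of Slc25a36 was kept in 7 of 19, that of Slc25a13 in 10 of 19, that of Slc25a10 in 8 of 19 and that of Slc25a6 in 9 of 18. No member was called without SHR replicate 4, where 10 had an unadjusted p under 0.05 and 4377 of all 46063 assembled genes were called. With the mean spike-in level as a covariate no member was called either (7 unadjusted), against 1849 of all genes. The spike-in level ran from 6.37 to 6.82 in SHR and from 6.95 to 7.85 in BN-Lx. The strains did not overlap in that level, so strain and spike-in level cannot be told apart.

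**Figure D2:**
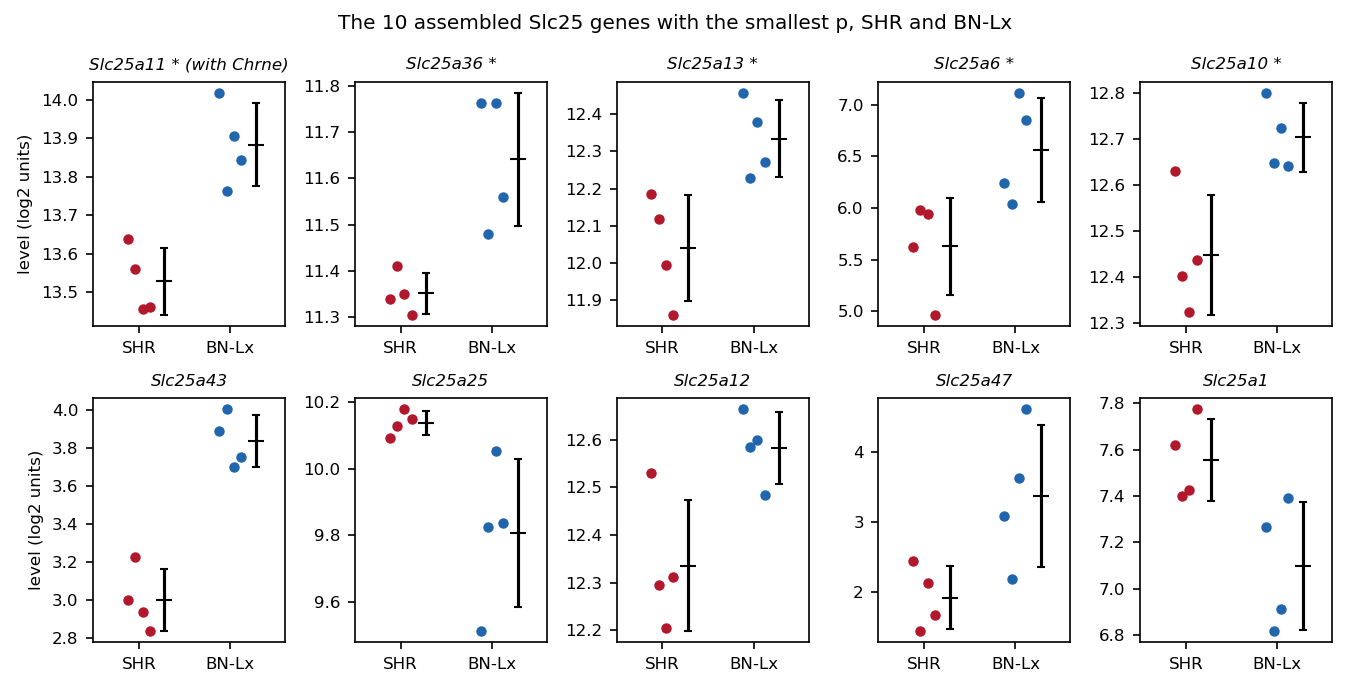
Log2 level (y axis, a separate scale in each panel that does not start at 0) of the 10 assembled genes of the family with the smallest p, the gene shared by Slc25a11 and Chrne included, SHR left of BN-Lx. Points are the 4 libraries of each strain, bars the mean and SD, and asterisks mark an adjusted p under 0.05. In the marked panels all SHR points lie below all BN-Lx points, and Slc25a25 and Slc25a1 are higher in SHR without passing.

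Among the carriers of adenine nucleotides that did not pass, Slc25a4 had 17.03, 16.93, 16.76 and 16.81 in SHR, against 17.31, 16.95, 17.20 and 17.01 in BN-Lx. The groups overlapped, and the difference of -0.23 had an adjusted p of 0.109 (limma). Slc25a5 overlapped more widely, with 13.28, 13.08, 12.77 and 12.93 in SHR, against 13.31, 13.08, 13.29 and 13.00 in BN-Lx (-0.16, adjusted p = 0.367 by limma). Of the calcium-regulated ATP-Mg/phosphate carriers, Slc25a25 had 10.09, 10.13, 10.18 and 10.15 in SHR, against 9.51, 9.82, 10.05 and 9.84 in BN-Lx, all SHR libraries above all BN-Lx libraries, with an adjusted p of 0.0534 (limma, difference 0.33). Slc25a24 differed by 0.15 (adjusted p = 0.329 by limma).

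Slc25a12 as a whole gene had 12.53, 12.29, 12.21 and 12.31 in SHR, against 12.66, 12.58, 12.60 and 12.48 in BN-Lx, where 1 SHR library overlapped (-0.25, adjusted p = 0.0545 by limma). The citrate carrier Slc25a1 had 7.62, 7.40, 7.43 and 7.78 in SHR, against 7.27, 6.82, 6.91 and 7.39 in BN-Lx, without overlap (0.46, adjusted p = 0.0662 by limma). Both iron importers, the mitoferrins, were near even, with differences of 0.09 for Slc25a37 (adjusted p = 0.632) and 0.05 for Slc25a28 (adjusted p = 0.779 by limma). Slc25a43, which has no settled substrate, had 3.00, 3.23, 2.94 and 2.84 in SHR, against 3.89, 4.01, 3.70 and 3.76 in BN-Lx (-0.84, adjusted p = 0.0511 by limma). All 4 SHR libraries lay below those of BN-Lx, at a low level.

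Transcripts were then compared, since a gene can be even while its transcripts differ. Of 135 assembled transcripts of the members, 10 passed the test, 4 higher and 6 lower in SHR, against 5.53% of all 91969 assembled transcripts. Slc25a12 held 6 of the 10. It lies on the minus strand of chromosome 3 between 56097162 and 56192280, and its 7 assembled transcripts end at 1 of 2 places, a proximal end at 56098080 and a distal end 911 to 918 bases further on.

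The most abundant transcript, PRN7.71T0433534, has 18 exons and the proximal end. It had 12.41, 12.29, 12.20 and 12.27 in SHR, against 11.96, 11.08, 11.58 and 11.16 in BN-Lx, higher in every SHR library by 0.85 (SE 0.19, adjusted p = 0.0355 by limma). PRN7.71T0433533 has 19 exons, shares 17 of them and the start at 56192280 with it, and has the distal end. It had 7.45, 7.04, 6.53 and 6.98 in SHR, against 9.28, 9.88, 9.64 and 9.63 in BN-Lx, lower in every SHR library (difference -2.60, SE 0.22, adjusted p = 0.000295 by limma). This pair thus moved in opposite directions and begins at the same base.

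PRN7.71T0196115 (16 exons, proximal end) had 8.11, 7.14, 8.23 and 7.09 in SHR, against 6.10, 5.15, 5.87 and 5.34 in BN-Lx (2.03, SE 0.35, adjusted p = 0.0114 by limma). PRN7.71T0433529 (16 exons, distal end) had 7.58, 4.99, 6.58 and 6.30 in SHR, against 8.46, 8.50, 8.16 and 8.37 in BN-Lx (-2.01, SE 0.46, adjusted p = 0.0404). Both were without overlap, and the short distal PRN7.71T0433530 was too. This fragment of 4 exons and 497 bases went against the other distal transcripts, with 4.19, 4.20, 3.96 and 4.11 in SHR, against 1.05, 0.08, 1.10 and 1.44 in BN-Lx (3.20, SE 0.37, adjusted p = 0.00169 by limma). PRN7.71T0433532 (17 exons, distal end) had 1.49, 5.79, 1.55 and 5.39 in SHR, against 7.69, 7.62, 7.96 and 8.22 in BN-Lx (-4.32, SE 0.99, adjusted p = 0.0390), and its SHR libraries split into a low and a high pair. PRN7.71T0433528 (17 exons, distal end) overlapped between the strains (-0.08, adjusted p = 0.910 by limma).

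The transcripts share most exons, so their levels are estimates in which common reads may be divided among them. Equal alignment of SHR and BN-Lx reads to rn7 over this 3′ end was not tested. The calls of PRN7.71T0433533, PRN7.71T0196115 and PRN7.71T0433530 held in each alternative run (12 of 12, 12 of 12 and 11 of 11), while PRN7.71T0433534 held in 3 of 12 and PRN7.71T0433529 and PRN7.71T0433532 in 4 of 12 each.

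Put as a share of the summed linear level of the gene, which is not corrected for length, transcripts of more than 10 exons with the distal end made up 9.78, 7.76, 5.82 and 8.80% in SHR, against 24.8, 45.1, 32.9 and 41.0% in BN-Lx. This measure was defined after the transcript values were seen and is given as a description. Across the recombinant strains the distal share was 24.2 ± 16.4% in HXB (SD, n = 12; range 5.97 to 58.4%) and 10.6 ± 4.14% in BXH (SD, n = 9; range 4.10 to 16.6%). Of the 21 strains 13 lay above the highest SHR library, 6 of them above the lowest BN-Lx library, 7 lay within the SHR range and 1 below it. The highest share was that of HXB13, the strain with the lowest library score (defined with the family comparison). Over the 21 strains the share had r = -0.44 with that score (permutation p = 0.0425, adjusted p = 0.0708; rho = -0.18, permutation p = 0.431), with r = -0.41 without BXH12 and BXH9, -0.60 in batch 2 and -0.37 in batch 3. With the spike-in mean it had r = -0.26 (permutation p = 0.255, adjusted p = 0.318; rho = -0.04), and neither relation passed after adjustment.

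The short transcript PRN7.71T0433530 ran from 0.92 to 4.37 over the strains, with 3 modes (groups of values found by a Gaussian mixture). Its 9 lowest strains were HXB24 (0.92), HXB25 (0.94), BXH11 (0.98), HXB17 (1.02), HXB7 (1.06), HXB21 (1.11), BXH12 (1.19), BXH2 (1.24) and BXH8 (1.35), all within the BN-Lx range, and the next was HXB13 at 2.47. Only 1 strain fell within the narrow SHR range. PRN7.71T0433533 ran from 6.53 to 10.39 with a median of 8.32, and 8 strains lay within the SHR range and 2 within that of BN-Lx. Over all members' transcripts, 51 of 135 had more than 1 mode, 6 of the 10 called among them, against 35.3% of all assembled transcripts.

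**Figure D3:**
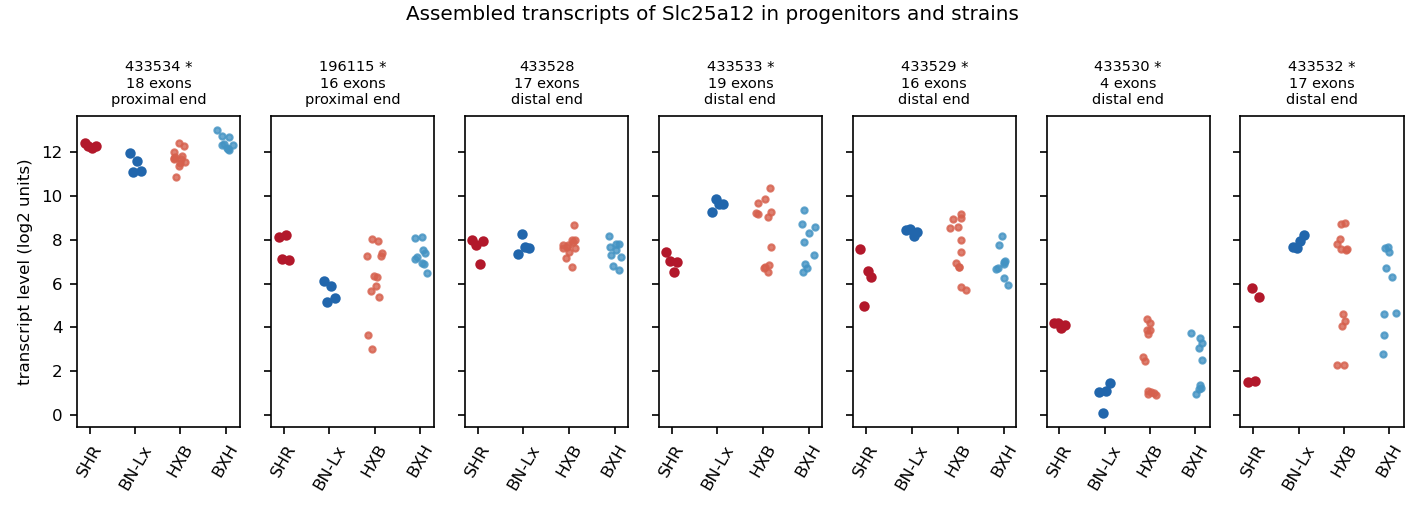
Log2 level of the assembled transcripts of Slc25a12 (y axis) in SHR, BN-Lx, HXB and BXH libraries, 1 panel a transcript (headed by the last digits of its name), with a point for each library and an asterisk where SHR and BN-Lx differ at an adjusted p under 0.05. The distal PRN7.71T0433533 is low in SHR (6.53 to 7.45) and high in BN-Lx (9.28 to 9.88), and the strains spread from 6.53 to 10.39.

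The other called transcripts belong to 4 members. Of Slc25a15, the ornithine carrier, PRN7.71T0489210 had 8.18, 7.57, 7.90 and 7.80 in SHR, against 6.81, 5.77, 5.95 and 6.61 in BN-Lx, higher by 1.58 (SE 0.27, adjusted p = 0.0118 by limma) in a gene that differed by 0.07 as a whole. The call held in 12 of 12 alternatives, and the strains ran from 5.49 to 8.19. PRN7.71T0462292 of Slc25a36 had 6.45, 6.68, 6.63 and 6.27 in SHR, against 7.65, 6.97, 7.47 and 7.48 in BN-Lx (-0.88, SE 0.21, adjusted p = 0.0424 by limma), the direction of its gene. Slc25a26, the S-adenosylmethionine carrier, and Slc25a35 each had a scarce transcript that was lower in SHR. PRN7.71T0441518 of Slc25a26 had 1.39, 0.98, 2.36 and 1.18 in SHR, against 3.18, 3.35, 3.17 and 3.68 in BN-Lx (-1.87, SE 0.39, adjusted p = 0.0274), and PRN7.71T0469747 of Slc25a35 had 0.99, 1.24, 1.74 and 2.65 in SHR, against 4.04, 3.64, 3.30 and 3.13 in BN-Lx (-1.88, SE 0.44, adjusted p = 0.0442 by limma). These last 3 calls held in 3 of 12, 3 of 11 and 3 of 11 alternatives.

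The reciprocal families were compared across strains in the RefSeq table, with sequencing batch in the fit. In HXB 21 of 43 members passed the test, 5 higher and 16 lower than in BXH, against 36.3% of all 19100 RefSeq genes, 18.5% higher and 17.8% lower (limma, Benjamini-Hochberg adjusted). The median difference was -0.11 over the members, of which 30 were negative and 13 positive, against -0.01 over all genes. The called differences were small, between 0.11 and 0.49 in size, and the families overlapped in each of the 21.

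Measures of the libraries also differed between the families, so family and library measure cannot be fully told apart here. The mean of 69 spike-in RNAs ran from 6.63 to 7.01 in HXB and from 6.78 to 7.93 in BXH, and a library score, fitted over genes as how far a library departs along the difference of 2 repeat libraries of 1 SHR animal, ran from -1.15 to 0.50 in HXB and from -0.36 to 0.99 in BXH. With either measure as a covariate 0 members were called (limma, 9 and 3 at an unadjusted p under 0.05) and 0 of all genes (2006 and 1594 unadjusted). The loss of calls was thus not particular to the members. The score was fitted over genes of higher mean level in these same libraries, members included. The sign was kept in 21 of the 21 members with the spike-in covariate and in 17 with the score, and no share over all genes is given beside these counts. HXB13, the strain with the lowest score, was the extreme strain in 12 of the 21, a count with no share over all genes beside it. Without HXB13 20 members and 6198 of all genes were called.

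The carriers of the malate-aspartate shuttle were all 3 lower in HXB. Slc25a11 ran from 12.95 to 13.30 in HXB with a median of 13.09, against 13.14 to 13.62 with a median of 13.40 in BXH, and had the smallest p of the family (-0.29, SE 0.05, adjusted p = 0.00059 by limma). Slc25a12 and Slc25a13 fell by less (-0.15, adjusted p = 0.0151, and -0.11, adjusted p = 0.0197). Slc25a3, the phosphate carrier, ran from 16.07 to 16.29 with a median of 16.18 in HXB, against 16.14 to 16.56 with a median of 16.35 in BXH (-0.18, adjusted p = 0.0138 by limma). None of the 3 ADP/ATP carriers passed: Slc25a4 ran from 16.94 to 17.28 with a median of 17.11 in HXB, against 17.00 to 17.31 with a median of 17.08 in BXH (-0.01, SE 0.06, adjusted p = 0.93), and Slc25a5 and Slc25a6 differed by -0.11 each (adjusted p = 0.17 and 0.485).

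Of the calcium-regulated ATP-Mg/phosphate carriers, Slc25a23 was lower in HXB, at 9.60 to 9.95 with a median of 9.73, against 9.75 to 10.07 with a median of 9.96 in BXH (-0.195, SE 0.05, adjusted p = 0.00496 by limma). Slc25a24 and Slc25a25 did not pass. Among the carriers of citrate and dicarboxylates, Slc25a10 ran from 8.68 to 9.11 with a median of 8.89 in HXB, against 8.90 to 9.41 with a median of 9.22 in BXH (-0.33, SE 0.07, adjusted p = 0.00116 by limma). Slc25a1 ran from 7.26 to 7.88 with a median of 7.51 in HXB, against 7.47 to 7.90 with a median of 7.79 in BXH (-0.29, SE 0.07, adjusted p = 0.00234). Both families shared much of their range, and Slc25a21, the oxodicarboxylate carrier, did not pass.

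Glutathione transport involves Slc25a39 and Slc25a40, which went opposite ways. Slc25a39 ran from 11.89 to 12.57 with a median of 12.11 in HXB, against 12.25 to 12.89 with a median of 12.52 in BXH, and 10 of the 12 HXB strains were below every BXH strain (-0.39, SE 0.08, adjusted p = 0.000691 by limma). Slc25a40 was higher in HXB by 0.16 (adjusted p = 0.0457), and passed in 4 of 12 alternatives, not without HXB13 (adjusted p = 0.0864). Slc25a42 fell by 0.20 (adjusted p = 0.0121) and Slc25a16, linked to coenzyme A, rose by 0.16 (adjusted p = 0.018). Slc25a17, Slc25a26, Slc25a32 and Slc25a52 did not pass.

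Of the pyrimidine nucleotide carriers Slc25a36 was higher in HXB and Slc25a33 lower. Slc25a36 ran from 10.92 to 11.51 with a median of 11.26 in HXB, against 10.58 to 11.26 with a median of 10.94 in BXH (0.34, SE 0.08, adjusted p = 0.00261 by limma), and Slc25a33 differed by -0.18 (adjusted p = 0.0284). Slc25a36 was thus lower in SHR than in BN-Lx but higher in HXB than in BXH, whereas Slc25a10 and Slc25a13, the other members called in both comparisons, were lower in SHR and in HXB. For Slc25a10 the assembled gene lay 3.67 log2 units above the RefSeq level (rho = 0.81 across strains), so its calls may not rest on the same RNA. With the library score as a covariate the family difference of Slc25a36 was -0.00554. Of 6 carriers of amino acids, Slc25a2, an ornithine carrier, was higher in HXB by 0.40 (adjusted p = 0.00881), against -0.0734 with the score as a covariate. Its RefSeq transcript, at a median of 3.71 where the gene is at 6.89, differed by 0.13 (adjusted p = 0.579 by limma), and its assembled level did not follow its RefSeq level across strains (rho = -0.02). Slc25a29, a carrier of basic amino acids, had the greatest difference of the family, with 7.39 to 8.28 and a median of 7.95 in HXB, against 7.96 to 8.71 and a median of 8.49 in BXH (-0.49, SE 0.12, adjusted p = 0.00261 by limma).

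Slc25a45 ran from 7.63 to 8.04 with a median of 7.90 in HXB, against 7.96 to 8.70 with a median of 8.19 in BXH (-0.37, SE 0.08, adjusted p = 0.00189 by limma). Slc25a34 and Slc25a35, whose substrates are not settled, were lower together: Slc25a34 ran from 11.61 to 12.26 with a median of 11.91 in HXB, against 11.89 to 12.71 with a median of 12.31 in BXH (-0.39, SE 0.08, adjusted p = 0.00126), and Slc25a35 from 6.17 to 6.59 with a median of 6.44 in HXB, against 6.43 to 6.92 with a median of 6.80 in BXH (-0.33, SE 0.07, adjusted p = 0.00133 by limma). Slc25a46 went the other way, from 9.78 to 10.34 with a median of 9.91 in HXB, against 9.52 to 9.87 with a median of 9.70 in BXH (0.28, SE 0.07, adjusted p = 0.00226 by limma). Of the mitoferrins Slc25a28 fell by 0.20 (adjusted p = 0.0137), and Slc25a37 did not pass (0.05, adjusted p = 0.633). The uncoupling protein relatives Slc25a14, Slc25a27 and Slc25a30, the glutamate carriers Slc25a18 and Slc25a22, Slc25a15, Slc25a38 and Slc25a44 among the amino acid carriers, and Slc25a43, Slc25a47 and Slc25a53 did not pass.

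**Figure D4:**
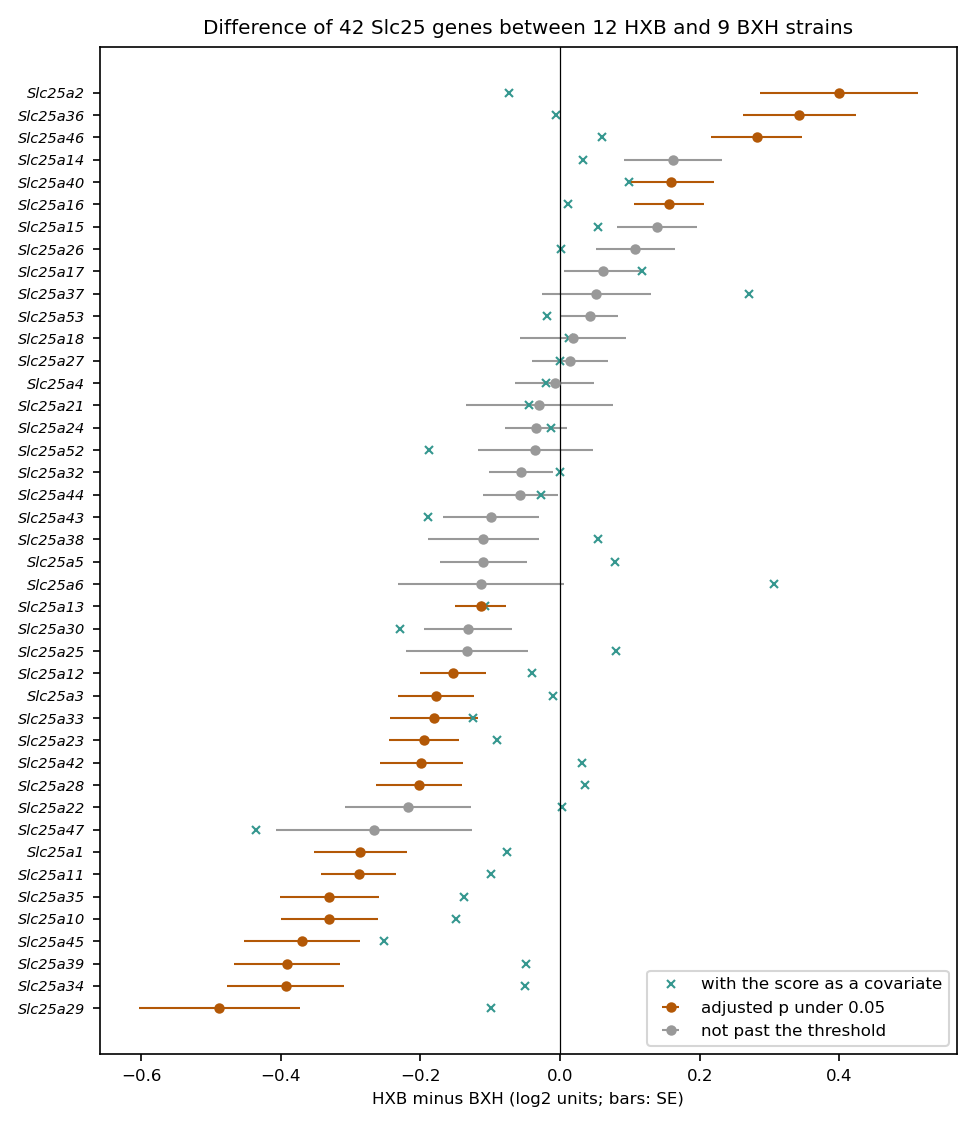
Log2 difference HXB minus BXH of 42 members with its standard error (x axis), 1 row a member, in orange where the adjusted p was under 0.05 and in grey otherwise; crosses give the difference with the library score as a covariate. The called members lie between -0.49 and 0.40, with 15 below 0 and 5 above, and the crosses of these 20 members all lie nearer 0.

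The sign of the difference was the same in batch 2 and in batch 3 for 36 of the 43 members and for each of the 21 called. The 21 were called on both batches together, so their agreement is partly built in and is not a replication. No share over all genes is given beside these counts. Some differences in batch 2 were near 0, with -0.00754 for Slc25a12 (-0.21 in batch 3), -0.04 for Slc25a28 (-0.27), -0.04 for Slc25a42 (-0.27) and -0.05 for Slc25a3 (-0.23). Batch 3 alone called 21 members and 6787 of all 19100 genes. Batch 2 alone, with 3 strains a family, called 0 members (3 at an unadjusted p under 0.05, limma) and 0 of all genes (1561 unadjusted). A term for a difference between batches passed for 0 members and 0 of all genes, with 2 members (Slc25a12 and Slc25a15) and 1476 genes at an unadjusted p under 0.05 (limma). Of 80 RefSeq transcripts of 38 members, 18 passed, 1 higher and 17 lower in HXB, against 19% of all 39592 RefSeq transcripts (limma). The one that was higher belongs to Slc25a36, with 5.88 to 6.77 in HXB, against 4.76 to 6.31 in BXH (0.96, SE 0.16, adjusted p = 0.0015), while a rarer transcript of the same gene was lower, with 2.74 to 4.67 in HXB, against 2.96 to 5.32 in BXH (-1.04, SE 0.34, adjusted p = 0.0365 by limma).

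The spread of the members across the 21 strains was near that of all genes. The median SD within batch was 0.17 log2 units, 25 of 43 were under the median of all RefSeq genes, and 3 were above its 90th percentile (Slc25a29 at 0.37, Slc25a47 at 0.36 and Slc25a2 at 0.33). Repeat libraries of SHR replicate 4 differed by a median of 0.08 over the members and 0.09 over all genes, most for Slc25a47 (-0.42) and Slc25a6 (0.41). More than 1 mode was found in 4 of 43 members, Slc25a1, Slc25a16, Slc25a34 and Slc25a47, against 15.6% of all RefSeq genes. Slc25a16 ran from 8.04 to 8.48 over the strains. Slc25a47 ran from 2.82 in BXH11 over a median of 3.13 to 3.66 in BXH8, 3.81 in BXH12 and 4.54 in BXH5. Levels most alike across strains by Spearman's rho, given as a description over 21 libraries, were those of Slc25a3 and Slc25a11 (0.93), Slc25a28 and Slc25a39 (0.89) and Slc25a10 and Slc25a35 (0.88), and the most opposed were Slc25a36 and Slc25a39 (-0.93).

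Members known from other cell types were read beside the markers of those cells. Slc25a47, which is enriched in liver, followed the mean of 8 hepatocyte markers across the 21 strains (Pearson's r = 0.85, permutation p = 1e-05, the smallest the 100000 resamples can give, adjusted p = 5e-05 over 5 relations; Spearman's rho = 0.78, permutation p = 0.00011). The relation was 0.78 without BXH5 and BXH8, 0.96 in batch 2 and 0.83 in batch 3. The mean of the 8 hepatocyte markers ran from 6.82 to 8.60 in HXB and from 7.01 to 9.86 in BXH. In the progenitors only 5 of them had an assembled gene. The mean of those 5, a different measure, ran from 6.19 to 7.58 in SHR and from 7.46 to 10.27 in BN-Lx. Of the 5, 0 were higher and 3 lower in SHR, beside 6.95% of all assembled genes lower. The part of such RNA in the levels of Slc25a47 was not tested. Slc25a47 itself had 2.44, 1.43, 2.13 and 1.67 in SHR, against 3.08, 2.18, 3.62 and 4.62 in BN-Lx, with overlap (-1.46, SE 0.47, adjusted p = 0.0576 by limma).

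Slc25a37, the mitoferrin of red cell precursors, followed the mean of 8 erythroid markers (r = 0.73, permutation p = 0.00013, adjusted p = 0.000325; rho = 0.66, permutation p = 0.00145), with r = 0.65 without HXB25 and BXH12, 0.97 in batch 2 and 0.59 in batch 3. None of the 8 erythroid markers passed between the families (limma, 2 at an unadjusted p under 0.05), and their mean ran from 11.52 to 13.05 in HXB and from 11.82 to 12.67 in BXH. The relation of Slc25a4 with the mean of 9 cardiomyocyte markers did not pass (r = 0.23, permutation p = 0.319, adjusted p = 0.319; rho = 0.19, permutation p = 0.399), and r was -0.67 in batch 2 and 0.29 in batch 3. The mean of these 9 markers ran from 17.46 to 17.77 in HXB and from 17.60 to 17.92 in BXH. Of the 9, 1 was higher and 5 lower in HXB, beside 18.5% and 17.8% of all RefSeq genes. In the progenitors only 7 of them had an assembled gene. The mean of those 7 ran from 17.15 to 17.29 in SHR and from 17.23 to 17.46 in BN-Lx, with 0 higher and 2 lower in SHR. It is a different measure, so strains and progenitors cannot be set against each other by it. Of 6 endothelial markers 4 were higher in SHR, and of 4 pericyte and smooth muscle markers 2 were. Of 4 macrophage markers 2 were lower, and of 5 fibroblast markers 1 was higher and 1 lower. Of 5 Schwann cell and neuron markers 1 was higher, and the 1 adipocyte marker measured did not pass. Over all assembled genes 14.3% passed. The part of these cells in the gene differences was not tested. In bulk tissue, fewer cells of a type and less RNA per cell cannot be told apart.

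**Figure D5:**
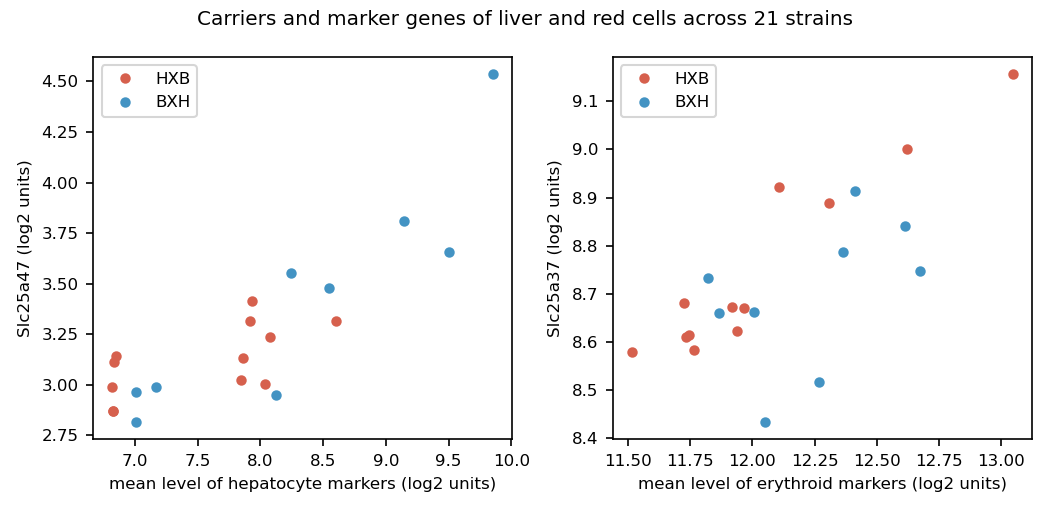
Level of Slc25a47 against the mean of 8 hepatocyte markers and of Slc25a37 against the mean of 8 erythroid markers (log2 levels on both axes), with a point for each of the 21 recombinant strains, by family. Slc25a47 is highest in BXH5 (4.54), the strain with the highest hepatocyte mean (9.86).

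The partners of the family were counted in lists, beside 14.3% of all assembled genes past the test in SHR and 36.3% of all RefSeq genes in HXB (18.5% higher, 17.8% lower). Of the relatives under other symbols, Ucp3 was higher in SHR (0.73, adjusted p = 0.00138 by limma) and Ucp2 lower (-0.40, adjusted p = 0.016) among 3 measured, and in HXB Mtch1 (-0.28, adjusted p = 0.00182) and Ucp2 (-0.46, adjusted p = 0.00497) were lower among 4. Of a list of mitochondrial protein import genes, not limited to the route of the carriers, 0 of 11 measured passed in SHR (limma, 5 at an unadjusted p under 0.05). In HXB 1 was higher and 7 lower of 16, Timm50 (-0.36) and Timm17b (-0.31) with the smallest p. Of the shuttle and energy transfer enzymes, 3 were higher and 4 lower of 16 in SHR, with Glud1, glutamate dehydrogenase, higher by 0.31 and Gpd1, glycerol-3-phosphate dehydrogenase, by 0.51. In HXB 1 was higher and 8 lower of 18, Ak1 (-0.33) and Gpd1 (-0.41) leading.

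Of the other channels and carriers of the mitochondrial membranes, 1 was higher and 4 lower of 17 in SHR, with Tspo (-0.70) and Vdac1, the voltage-dependent anion channel (-0.33), leading, and 5 were higher and 5 lower of 20 in HXB, with Tspo (-0.46) among the lower ones. Of the carnitine and acyl-CoA partners, 2 were higher and 1 lower of 9 in SHR, with Cpt1a (0.44) and Crat (0.29) leading, and 0 higher and 4 lower of 9 in HXB, with Mlycd (-0.25) and Cpt2 (-0.20) leading. Of the transcriptional regulators of mitochondrial genes, 2 were higher and 1 lower of 11 in SHR, with Pprc1 (0.48) and Ppara (0.43) leading, and 2 were higher and 2 lower of 14 in HXB, with Gabpa (0.36) and Esrra (-0.30) leading.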

How the data were processed

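Rat left ventricle RNA was sequenced by the authors from libraries of rRNA-depleted total RNA (Illumina TruSeq Stranded kit). Build rn7 and the tools RSEM 1.3.1, DESeq2 (no version), StringTie 1.3.5, HISAT2 2.1.0, Bowtie2 2.3.4.3 and cutadapt 1.9.1 are listed in the submitters' processing notes, with no role or order. The deposited tables hold log2 levels made by the authors per gene or transcript and library. The transformation was not given in the sources used here. Without counts the depth of a library is unknown, and counting error could not be computed. Library medians ran from 7.89 to 7.95 in the RefSeq gene table and from 4.29 to 4.46 in the assembled gene table. Nothing says that replicates came from separate litters or days, so p-values measure the spread between these libraries.

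Of 31 labelled libraries 29 entered the comparisons, and later libraries of SHR replicate 4 served only for repeatability. Spike-in values were left out of the fits. limma 3.58.1 (R 4.3.3; lmFit, eBayes with an intensity trend, two-sided) was fitted to all features, and calls were made at a Benjamini-Hochberg adjusted p under 0.05. Modes came from mclust 6.1.1 (up to 3 components of equal variance, values centred within batch). Scripts were tested on simulated data. Of 50 features changed by 0.5 log2 units, the progenitor comparison recovered 2% and the family comparison 94%. Recovery in the data can differ, since only 50 features were changed. Members that did not pass are not shown to be equal. Values per library are given for members called between the progenitors. Between the families, ranges and medians are given for called members (at most 12, by p). Members with more than 1 mode have ranges over strains or families, and the 8 highest levels per length have means and SDs. The others are given by role. Members, lists and tests were chosen with earlier results of these data known. Counts cover all members and listed genes, but 1 member and 1 listed gene are not reported here by name. Promoters came from RefSeq (GRCr8). Alternatives changed the normalization, filter on low means (4 or 8), fit, batches, libraries and covariates. Numbers and figures were made in Python 3.11.15 with numpy 2.4.6, pandas 2.3.3, scipy 1.17.1 and matplotlib 3.10.9.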

Additional observations from a re-analysis of the deposited data

Results flagged for a closer look

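In 4 of 115 groups of values, from BXH, SHR or BN-Lx, 1 library stood far from the rest of its group, where chance marks about 1 in 20. The HXB strains were not examined in this way. Slc25a1 was lowest in BXH6 (7.47, next 7.71) among the 9 BXH strains. Slc25a26 was lowest in BXH9 (10.2, next 10.4) in the same family. Slc25a32 was lowest in BN-Lx replicate 1 (9.32, next 9.48), and Slc25a37 was highest in SHR replicate 1 (9.16, next 8.90), each among 4 libraries. Neither member passed the test between the progenitors.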

How the results depend on the processing

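Between the progenitors, where 4 members were called, 1 was called without the intensity trend (Slc25a43, none of the 4) and 7 with robust variance estimation (all 4 included). With all groups in 1 fit 2 were called (Slc25a13 of the 4, and Slc25a43). The calls became 0 with the mean spike-in level or with the library score as a covariate (limma, 7 and 2 at an unadjusted p under 0.05). With these covariates 1849 and 1438 of all assembled genes were called, against 6603 in the main fit. For the progenitors the score followed the difference between SHR replicate 4, itself in the comparison, and a later library of that animal. It ran from -0.30 to 0.05 in SHR and from 0.06 to 0.17 in BN-Lx. Neither measure overlapped between the strains, so strain and covariate cannot be told apart in these fits. Leaving out 1 library gave 0 to 4 members: 0 without SHR replicate 4, 1 of the 4 without SHR replicate 2 or 3 or BN-Lx replicate 1, Slc25a25 alone (higher in SHR, none of the 4) without BN-Lx replicate 3, Slc25a36 and Slc25a1 (Slc25a1 higher in SHR) without BN-Lx replicate 4, and 4 without SHR replicate 1 (2 of them among the 4) or without BN-Lx replicate 2 (3 among the 4). In these fits with 1 library left out, 4377 to 6114 of all assembled genes were called. Quantile normalization, filters on low means, summed assembled genes, the mean of repeat libraries and genes with a shared symbol gave 3 to 6 members. Leaving out 1 library gave 4 to 6 of the 10 called transcripts. Taking the replicate number as a block gave 3 members, 2 of them among the 4, and 4 transcripts. Libraries of the same number did not deviate together (r = 0.19, -0.38, -0.17 and 0.15 for numbers 1 to 4), and not every library correlated best with its own number, so the numbers were not taken as pairs.

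Between the families, the 21 called members became 0 in batch 2 alone (3 unadjusted), 0 with the spike-in covariate and 0 with the score covariate, and ran from 15 to 22 otherwise. In each fit that called 0 members, 0 of all genes were called too. The 18 called transcripts became 0 with the score covariate (10 unadjusted), where 0 of all transcripts were called. With that covariate the difference turned round for Slc25a2 (-0.0734), Slc25a28 (0.0357), Slc25a36 (-0.00554) and Slc25a42 (0.031), and the cause was not tested. The covariates, the fits without BXH5 or HXB13 and the genes with a shared symbol were added after the data were seen. Members with more than 1 mode numbered 5 in each alternative. Of the 4 named, Slc25a1 and Slc25a47 were among them with values not centred within batch, and all 4 without BXH5. Slc25a1 and Slc25a47 were also among them in the assembled table, where Slc25a16 and Slc25a34 have no gene and could not be counted. A repeat on the earlier Ensembl table was not run, since no column of BN-Lx in it was used.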
